A study of Homo sapiens with 8 samples.

Results

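The stretch of chromosome 21 from ERG to TMPRSS2 holds the genes that are joined in the TMPRSS2:ERG fusion of prostate cancer, and it was examined here for binding of the transcription factor GATA2. It was taken from 200 kb before the ERG span to 200 kb after the TMPRSS2 span, chr21:38167261-41708158 in GRCh38 coordinates, a length of 3.54 Mb. Every GATA2 peak with its summit in this stretch was kept, which gave 148 of the 71653 peaks of the 4 lists. Overlapping peaks were merged over the lists into 76 regions, of 36122 regions in the whole series and beside 534 on the rest of chromosome 21. The outermost regions lie 77.3 and 141 kb inside the borders of the stretch, and the nearest peaks outside lie 26.9 kb before and 71.8 kb after them. The ERG span (gene ID 2078) runs over chr21:38367261-38661783, 295 kb, and the TMPRSS2 span (gene ID 7113) over chr21:41464305-41508158, 43.9 kb, in RefSeq.

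The cells were VCaP, an established line of castrate-resistant human prostate cancer, used here as a single line. All of them were kept without steroids for 72 h. The JQ1 group received 1 µM JQ1, an inhibitor of the BET bromodomain proteins that read acetylated histones, for the last 24 h. The untreated group carries a label of no treatment, while the growth protocol names a DMSO control, and no other agent is given for either group. Each group has 2 GATA2 precipitates from chromatin fixed with 1% formaldehyde, and each precipitate has a peak list of its own. Of the 8 samples named in the labels, the 4 input chromatins were not analysed here as samples. Whether the peak caller used them as its background was not given, so background values below may reflect input chromatin. The labels do not say whether the replicates came from separate cultures, so every p below measures only the spread between these samples.

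TMPRSS2 encodes a serine protease of the cell surface that is strongly expressed in the prostate under androgen control. ERG encodes a transcription factor of the ETS family that the normal prostate epithelium hardly makes. In the fusion, the start of TMPRSS2 with its control elements is placed before the coding part of ERG, so that androgen receptor drives an ETS factor, and VCaP is a known carrier. Both genes are read towards lower coordinates, so the end of each span is its starting side. GATA2 is a zinc-finger factor that binds the word GATA in open chromatin and is known as a partner of androgen receptor and of the forkhead factor FOXA1 at prostate enhancers, among them an enhancer upstream of TMPRSS2. Sequencing reads are placed on the reference genome, in which the genes stand apart, so that a peak at TMPRSS2 cannot be assigned to the intact or to the fused allele. Part of the stretch between the genes is lost from the fused chromosome in some tumours, and the copy number of the stretch in these cells was not analysed here.

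RefSeq promoter windows of GRCh38.p14, running from 250 bases before to 50 bases after a transcription start, were set against the peaks. The stretch has 43 such windows of 31 genes, and 1 of them was touched by a peak, where 0.807% of all windows were. The starts of TMPRSS2, SH3BGR, IGSF5, PCP4, BACE2, FAM3B and MX2 were not analysed here. That window belongs to LOC105372802, a noncoding RNA gene inside the ERG span. The ERG gene itself has 4 windows, and none was touched by a peak. The touched window is given here with a pair of the ERG windows, of which the one holds 1 GATA word and the other none. Each is written along the gene's own strand, and capitals mark a GATA word on either strand. The words searched were AGATAA, the variant with another first base, TGATAA, and the forms of these with a final G, which are AGATAG after a leading A and TGATAG after a leading T.
LOC105372802, chr21:38503568-38503867, plus strand: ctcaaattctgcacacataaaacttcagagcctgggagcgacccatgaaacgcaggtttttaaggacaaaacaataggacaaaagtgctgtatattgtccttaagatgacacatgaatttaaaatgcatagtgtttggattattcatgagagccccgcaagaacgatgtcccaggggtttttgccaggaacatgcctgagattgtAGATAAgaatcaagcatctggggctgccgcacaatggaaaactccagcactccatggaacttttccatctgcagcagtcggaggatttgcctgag
ERG, chr21:38498455-38498754, minus strand: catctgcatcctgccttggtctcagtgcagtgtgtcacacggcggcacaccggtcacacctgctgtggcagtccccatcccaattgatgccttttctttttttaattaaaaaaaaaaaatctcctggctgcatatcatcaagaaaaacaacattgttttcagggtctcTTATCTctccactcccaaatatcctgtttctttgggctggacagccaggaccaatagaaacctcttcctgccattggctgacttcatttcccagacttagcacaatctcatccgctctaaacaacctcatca
ERG, chr21:38660618-38660917, minus strand: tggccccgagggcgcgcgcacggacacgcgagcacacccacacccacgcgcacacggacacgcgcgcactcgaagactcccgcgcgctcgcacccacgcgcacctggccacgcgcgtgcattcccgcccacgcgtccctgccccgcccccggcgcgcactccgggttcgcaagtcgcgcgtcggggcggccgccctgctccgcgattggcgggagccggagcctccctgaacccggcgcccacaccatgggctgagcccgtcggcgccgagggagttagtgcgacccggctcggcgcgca
At LOC105372802 the peak belonged to JQ1 replicate 2 and ran over bases 113 to 259 of the window. Its summit was base 209, inside the word AGATAA that starts at base 206 and 42 bases upstream of the start. This was a weak peak with 14 reads at the summit, and 87.1% of that list's peaks were ranked at or above it by q-value. A GATA word stood in 25% of the 34943 RefSeq windows, so its presence alone sets no window apart. In the list of JQ1 replicate 2, 12 of the 157 summits that fell in a promoter window anywhere in the genome lay inside a GATA word, 7.64%, against 0.656% of all promoter bases. In JQ1 replicate 1 this held for 3 of 30 summits, against 3 of 54 in untreated replicate 1 and 10 of 129 in untreated replicate 2. None of the 3 printed windows holds the forkhead words TGTTTAC or TGTTTGC, found in 7.17% of all windows, or the androgen receptor word AGAACA, found in 14.8%. The ERG window at chr21:38498455-38498754 holds 1 match to the ETS words CGGAAG or AGGAAG, which were found in 46.9% of all windows. From the 4 ERG starts the nearest summits of any list were 5.27, 5.3, 14.4 and 47.6 kb away.

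The lists differed far more between replicates than between treatments. The whole lists held 4974 and 32404 peaks in JQ1 replicates 1 and 2, against 6902 and 27373 in untreated replicates 1 and 2. Depth was solved from each peak's fold enrichment and p-value, which returned whole numbers of reads within 0.02 for at least 99.945% of peaks in every list. The genome background came to 7.0 and 10.626 reads per kb in JQ1 replicates 1 and 2, against 7.874 and 12.874 in untreated replicates 1 and 2. Below, "reads" are the reads whose fragments cover a peak's summit, and "reads over genome background" are those reads divided by the number expected in a window of the same kind across the genome. Intervals are 95% and cover counting error only.

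In the ERG to TMPRSS2 stretch, the number of peaks with and without JQ1 did not differ beyond the spread of the replicates. The stretch held 15 and 67 peaks in JQ1 replicates 1 and 2, against 13 and 53 in untreated replicates 1 and 2, a mean of 41.0 ± 36.8 with JQ1 and 33.0 ± 28.3 without (SD, n = 2 each). The groups overlapped, and the difference of 0.27 on the log2 scale gave p = 0.667 (exact permutation of the 4 lists, two-sided). With 2 lists against 2, that test can give no p below 0.333. As a share of each list, the stretch held 0.302% (Wilson interval 0.183 to 0.497) and 0.207% (0.163 to 0.262) of the peaks in JQ1 replicates 1 and 2, against 0.188% (0.11 to 0.322) and 0.194% (0.148 to 0.253) in untreated replicates 1 and 2. Both JQ1 shares lay above both untreated shares, by 0.0632 percentage points on average, and the exact permutation test gave p = 0.333, the smallest it allows. The 4 intervals overlap, and the difference was 0.0131 points without replicate 1 and 0.113 points without replicate 2.

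**Figure D1:**
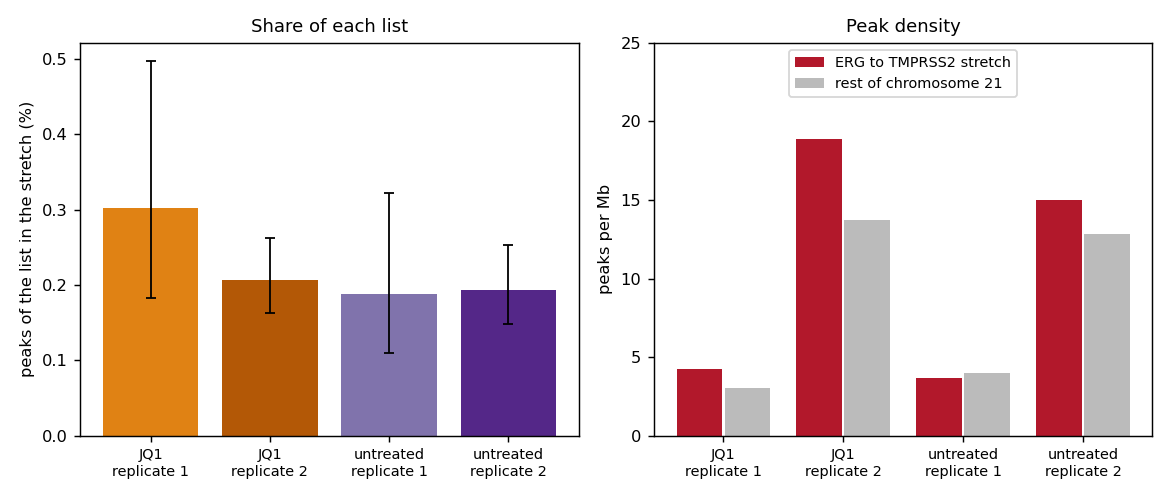
Left, the percentage of each list's peaks that fell in the ERG to TMPRSS2 stretch, with 95% Wilson intervals; right, peaks per Mb in the stretch (red) and on the rest of chromosome 21 (grey). JQ1 replicate 1 has the highest share, 0.302%, and untreated replicate 1 is the list with fewer peaks per Mb in the stretch than on the rest of the chromosome, 3.67 against 3.98.

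Peak density in the stretch did not differ from that of the rest of its chromosome beyond the spread between lists. It came to 4.24 and 18.9 peaks per Mb in JQ1 replicates 1 and 2, against 3.67 and 15.0 in untreated replicates 1 and 2. The rest of chromosome 21 had 3.06 and 13.7 peaks per Mb in the JQ1 lists, against 3.98 and 12.8 in the untreated lists. Its length was taken from the first to the last peak, chr21:8994981-46487748, less the stretch. Any part in which no peak could be called was left in, which would lower the density of the rest. The stretch was denser in 3 of 4 lists, 1.2-fold on average or 0.26 on the log2 scale, with p = 0.25 in a two-sided exact sign-flip permutation test whose smallest p is 0.125. From the start of ERG to the end of TMPRSS2, without the flanks, the mean turned to -0.1. The authors' median fold enrichment in the stretch was 5.02 and 6.73 in JQ1 replicates 1 and 2, against 5.45 and 6.57 in untreated replicates 1 and 2. Over all peaks of each list it was 5.94 and 6.62 in JQ1 replicates 1 and 2, against 6.14 and 7.46 in untreated replicates 1 and 2.

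GATA2 was found at 8 places of the stretch in all 4 lists. That is 10.5% of its 76 regions, against 8.96% of all regions of the series, a share near the background. They lie towards the ends of the stretch: 3 in KCNJ15 before ERG, 1 in ERG, 1 beyond ETS2, 1 in TMPRSS2 and 2 just past it. Between the ERG and TMPRSS2 spans, 2800 kb long, 56 regions were found and 1 of them was in all 4 lists. At these 8 places the summits of the 4 lists lay within 14 to 65 bp of each other, with a median spread of 25.5 bp, against 24 bp over all such regions of the series.

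**Figure D2:**
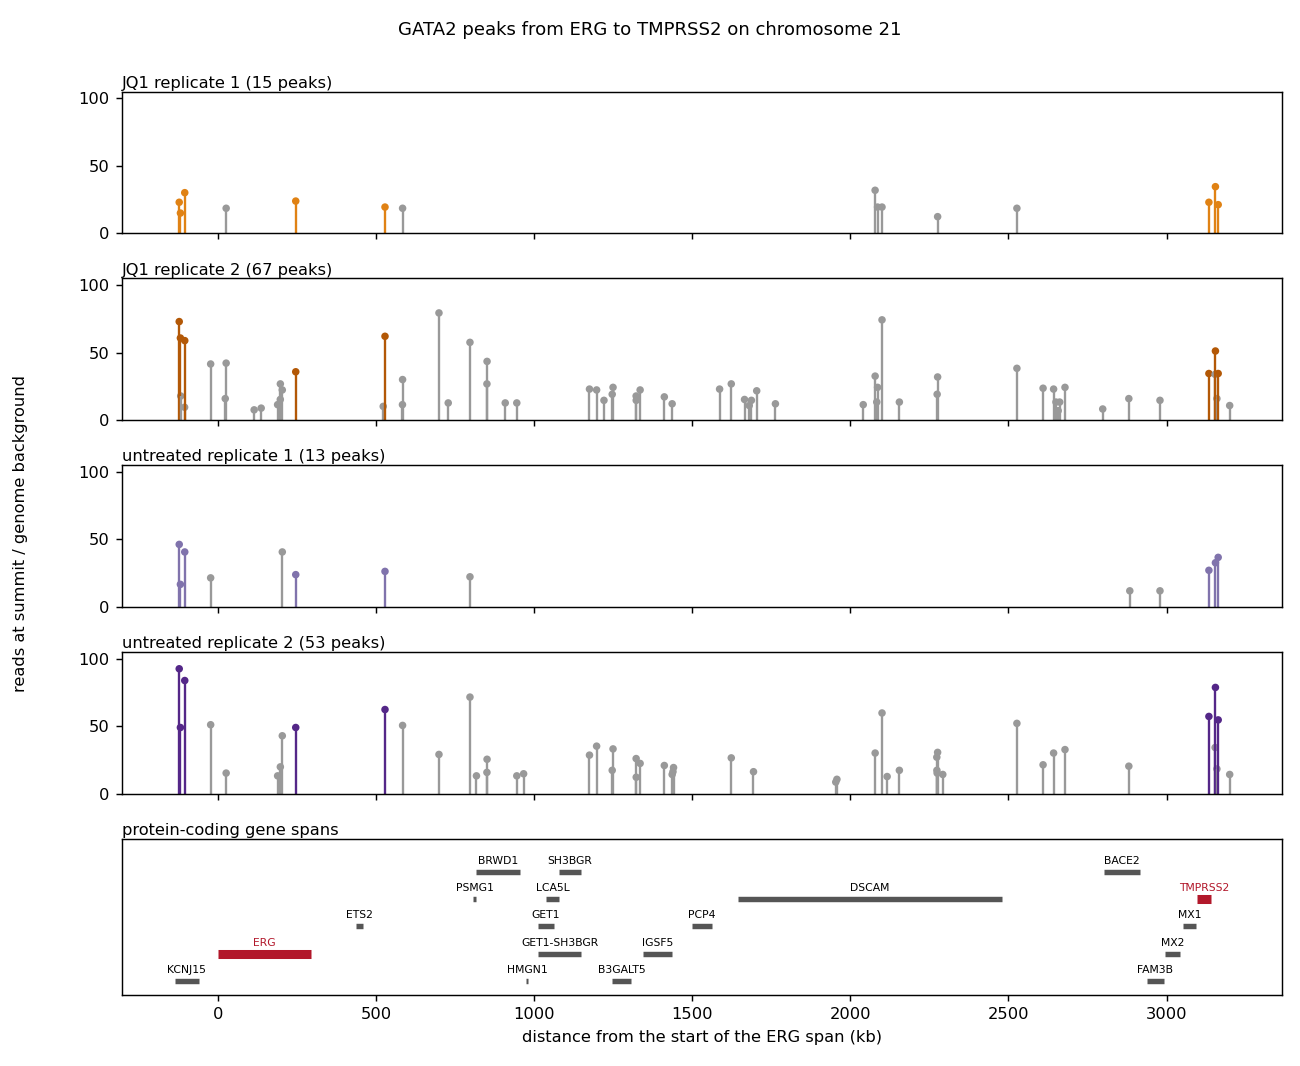
Every peak of the stretch in the 4 lists, by distance of its summit from the start of the ERG span (kb, x axis) and by reads at the summit over genome background (y axis), above the spans of the 19 protein-coding genes. Coloured stems are the 8 regions present in all 4 lists and grey stems are the others; the coloured stems stand at the left by KCNJ15, in ERG and past ETS2, and at the right end by TMPRSS2.

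Most regions were found in replicate 2 alone. With the reads at each summit scaled to the lowest depth and a −log10 p of 8 or more required, replicate 2 still had more peaks. The stretch then kept 13 and 51 peaks in JQ1 replicates 1 and 2, against 10 and 45 in untreated replicates 1 and 2. What separates the replicates was not tested. Both replicate 2 lists and neither replicate 1 list held 24 regions, 31.6% against 38.0% in the series. JQ1 replicate 2 alone held 21, 27.6% against 25.9%, and untreated replicate 2 alone held 11, 14.5% against 13.3%. Both JQ1 lists shared 15 regions, 19.7% against 13.1% in the series, and both untreated lists shared 11, 14.5% against 17.6%. Regions split cleanly by treatment were rare: 1 region was in both JQ1 lists and neither untreated list, 1.32% against 0.377%, and 0 were in both untreated lists and neither JQ1 list, against 0.62%. In replicate 1, whose lists are the short ones, 20 regions were found with or without JQ1. Of these, 7 were in the JQ1 list and not the untreated list, 35.0% against 18.8% in the series. Another 5 were in the untreated list and not the JQ1 list, and 8 were in both. The series had 8265 such replicate 1 regions. Of those, 1553 were in its JQ1 list only, 3441 in its untreated list only and 3271 in both.

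TMPRSS2 carried a cluster of GATA2 binding at its starting side. Its span held 1 region and the 200 kb past its end held 5, and 3 of these 6 were in all 4 lists. The region inside the span, chr21:41501062-41501325, has its summit 6.96 kb inside the end. It had 26 and 54 reads in JQ1 replicates 1 and 2, against 34 and 112 reads in untreated replicates 1 and 2. Per genome background these are 23.1 and 34.6 with JQ1, against 27.2 and 57.2 without. The ratio of JQ1 to untreated was 0.85 (0.49 to 1.46) in replicate 1 and 0.6 (0.428 to 0.843) in replicate 2. The JQ1 value was the lower within each replicate, and the groups overlapped because replicate 2 was higher than replicate 1 under both treatments.

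The region chr21:41521633-41522031, with the most reads of the cluster in 3 of 4 lists, peaked 13.7 kb past the end of the gene, on the side where the known upstream enhancer lies. It had 39 and 80 reads in JQ1 replicates 1 and 2, against 41 and 154 in untreated replicates 1 and 2. In replicate 1 the ratio was 1.06 (0.664 to 1.68), and in replicate 2 it was 0.65 (0.49 to 0.858). The interval of replicate 1 includes 1 and that of replicate 2 lies below it, but the intervals overlap, and the difference between the replicates was not tested. It ranked within the top 4.08% of peaks in JQ1 replicate 2 and the top 5.94% in untreated replicate 2 by q-value, and within the top 31.0% and 34.9% in the replicate 1 lists with and without JQ1.

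Farther out, chr21:41530352-41530691 peaked 22.4 kb past the end, inside the noncoding gene LOC124905021 and 0.565 kb from its start. It had 24 and 54 reads in JQ1 replicates 1 and 2, against 46 and 107 reads in untreated replicates 1 and 2. The ratio was 0.58 (0.338 to 0.969) in replicate 1 and 0.63 (0.447 to 0.885) in replicate 2, so that both intervals lay under 1. The shared regions of the series were themselves mostly lower with JQ1, and both intervals include the series median of their replicate. On the log2 scale the ratios were -0.79 and -0.66, against medians of -0.22 and -0.2. Over the regions of the series in all 4 lists, the medians were -0.22 and -0.3. In replicate 2, 15.4% of all regions shared by the replicate 2 lists were at or below the ratio of this region. The remaining 3 regions past TMPRSS2 were in the replicate 2 lists alone. They peaked 12.7, 18.3 and 58.8 kb past the end, with ratios of 0.99, 0.87 and 0.76 whose intervals all include 1. The one at 12.7 kb had 53 reads with JQ1 and 67 without, and lies beside the region at 13.7 kb.

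Over the TMPRSS2 cluster, reads per genome background were lower with JQ1 at 6 of 6 regions in replicate 2, where 64.7% of all regions shared by the replicate 2 lists were lower, and 5 of them were below the median of those. Of the 6 regions, 3 were in all 4 lists, and 82.5% of such regions in the series were lower in replicate 2. The authors' fold enrichment, which divides by the local background, did not give the same direction. In replicate 2 it was higher with JQ1 at 5 of these 6 regions, against 44.3% of all shared regions. At the summit inside TMPRSS2 it was 9.79 with JQ1 and 9.73 without. At 13.7 kb past the end it was 22.6 with JQ1 and 13.3 without, and at 22.4 kb it was 14.6 with JQ1 and 13.4 without. Whether the caller drew local background from the input chromatins was not given. The median local background of the cluster, as a multiple of the genome background, was 4.2 and 1.71 in JQ1 replicates 1 and 2, against 4.33 and 3.79 in untreated replicates 1 and 2. The median of JQ1 replicate 2 thus lay below those of the other 3 lists, and its part in the fold enrichment there follows from the caller's formula. At 12.7 kb past the end, though, it was 4.73 in JQ1 replicate 2 and 3.85 in untreated replicate 2. In expected reads at the depth of each precipitate, these backgrounds were 1.9 to 7.39 in JQ1 replicate 2 and 5.98 to 10.2 in untreated replicate 2. They are scaled values and not counted reads. No interval given here covers the counting error of such small numbers. The direction at TMPRSS2 in replicate 2 thus depended on the scale. At 12.7 kb past the end, where the ratio was 0.99, it was lower with JQ1 by the fold enrichment and higher when set against the series median.

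ERG carried 8 regions in its span, of which 1 was in all 4 lists. With each list shortened to the length of the shortest, none was, since this region was then in 3 lists. That region, chr21:38612940-38613277, has its summit 48.7 kb inside the end of the span and 28.1 kb from the nearest ERG start. It had 27 and 56 reads in JQ1 replicates 1 and 2, against 30 and 96 reads in untreated replicates 1 and 2. The ratio was 1.0 (0.572 to 1.74) in replicate 1 and 0.73 (0.516 to 1.03) in replicate 2, and both intervals include 1. Its fold enrichment was 8.55 and 10.1 with JQ1, against 8.64 and 15.4 without.

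A pair of other ERG regions were found in 3 lists each, and they pointed in opposite directions. The region chr21:38392672-38393124, 25.7 kb into ERG from its lower end, had 21 and 66 reads in JQ1 replicates 1 and 2 and 30 reads in untreated replicate 2, and was not called in untreated replicate 1. Its replicate 2 ratio was 2.76 (1.76 to 4.4), and 0.633% of the 21173 regions shared by the replicate 2 lists had a ratio this high or higher. The authors' fold enrichment ran the same way, 12.2 in JQ1 replicate 2 and 4.32 in untreated replicate 2. The region chr21:38570432-38570687, 91.2 kb inside the end, had 35 reads in JQ1 replicate 2 and 51 and 84 reads in untreated replicates 1 and 2, and was not called in JQ1 replicate 1. Its replicate 2 ratio was 0.52 (0.341 to 0.783), with 5.09% of shared regions at or below it. The fold enrichment was 3.86 in JQ1 replicate 2 and 13.6 and 5.86 in untreated replicates 1 and 2. A region that is not called in a list may still hold reads there, and the lists do not give them.

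The other 5 ERG regions were found in replicate 2 alone. Of these, 2 were in both replicate 2 lists, with 18 reads with JQ1 and 26 without at 106 kb inside the end, and 42 with JQ1 and 39 without at 97.4 kb. The other 3 were in JQ1 replicate 2 alone, with 25, 12 and 14 reads, and include the weak peak at LOC105372802. Over the 5 ERG regions that both replicate 2 lists held, 3 had fewer reads per genome background with JQ1 and 2 had more, from -0.94 to 1.46 on the log2 scale.

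Before ERG, the highest read counts of both untreated lists in the stretch lay inside KCNJ15, which encodes an inward-rectifier potassium channel. KCNJ15 held 5 regions in its 77.4 kb span, and 3 of them were in all 4 lists. The region chr21:38244315-38244737 had 26 and 114 reads in JQ1 replicates 1 and 2, against 58 and 181 in untreated replicates 1 and 2. Its ratio was 0.5 (0.301 to 0.804) in replicate 1 and 0.79 (0.619 to 1.0) in replicate 2, lower with JQ1 in both. By q-value it was at the top 27.7% and 1.21% of peaks in JQ1 replicates 1 and 2, against 10.7% and 3.36% in untreated replicates 1 and 2. In JQ1 replicate 1 other regions of the stretch ranked above it, the first at 15.9%.

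The next, chr21:38261880-38262247, had 34 and 92 reads in JQ1 replicates 1 and 2, against 51 and 164 in untreated replicates 1 and 2, with ratios of 0.74 (0.465 to 1.17) and 0.7 (0.538 to 0.913). The third, chr21:38248157-38248506, had 17 and 95 reads with JQ1, against 21 and 96 without. Its replicate 2 ratio of 1.24 (0.924 to 1.66) was the exception among the 8 regions in all 4 lists in lying above 1. Fold enrichment at the strongest of these regions was 7.19 and 28.8 in JQ1 replicates 1 and 2, against 7.4 and 15.7 in untreated replicates 1 and 2, so in replicate 2 it ran against the reads, as at TMPRSS2. The local background was 1.91 times the genome background in JQ1 replicate 2 and 5.21 times in untreated replicate 2. In expected reads, which are scaled and not counted, these were 2.99 and 10.2, and no interval given here covers their counting error.

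Between the genes, 1 region was in all 4 lists. It lies in the noncoding gene ETS2-AS1 at chr21:38895264-38895677, 70.4 kb from ETS2, which encodes another ETS factor. It had 22 and 97 reads in JQ1 replicates 1 and 2, against 33 and 122 in untreated replicates 1 and 2, with ratios of 0.74 (0.411 to 1.31) and 1.0 (0.755 to 1.31). ETS2 itself had no region in its span. It sits in the longest gap of the stretch, 276 kb from chr21:38613278-38889693 with no peak in any list.

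Among the best-ranked regions between the genes, chr21:39065890-39066304 stood out for its replicate 2 values. It lies in LINC02943, a noncoding gene, 109 kb from PSMG1. It had 124 reads in JQ1 replicate 2 and 57 in untreated replicate 2, and neither replicate 1 list called it. The ratio was 2.73 (1.98 to 3.8), and 0.704% of the shared regions had one this high or higher. The fold enrichment was 14.9 with JQ1 and 13.4 without, a much smaller difference. The local background was 4.73 times the genome background in JQ1 replicate 2 and 1.49 times in untreated replicate 2. In expected reads, which are scaled and not counted, these were 7.39 and 2.91, and no interval given here covers their counting error.

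PSMG1, a proteasome assembly chaperone, is the nearest coding gene to another region of high rank, chr21:39163949-39164256. That region had 90 reads in JQ1 replicate 2 and 28 and 140 reads in untreated replicates 1 and 2, with a replicate 2 ratio of 0.81 (0.611 to 1.06).

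DSCAM, which encodes a neuronal cell adhesion molecule, fills 836 kb of the stretch and held 20 regions, of which none was in all 4 lists. It had 4 and 13 peaks in JQ1 replicates 1 and 2, against 0 and 12 in untreated replicates 1 and 2. Of all protein-coding genes with a replicate 1 peak in their span, 13.3% likewise had one in JQ1 replicate 1 and none in untreated replicate 1. DSCAM was singled out here after its values were seen. The region chr21:40453128-40453372 was the one that the JQ1 lists shared and no untreated list held, with 22 and 38 reads and a fold enrichment of 5.84 and 8.31. The other 3 regions behind the JQ1 replicate 1 peaks were also in untreated replicate 2. They had 36, 22 and 14 reads in JQ1 replicate 1, 51, 116 and 50 in JQ1 replicate 2, and 59, 117 and 60 in untreated replicate 2. At the 5 DSCAM regions that both replicate 2 lists held, reads per genome background were higher with JQ1 at 4 and lower at 1, from -0.37 to 0.33 on the log2 scale, and all 5 intervals of the ratio include 1.

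Of the 19 protein-coding genes in the stretch, 9 had a region in their span and 10 had none, where 29.5% of all protein-coding genes had a peak summit in theirs. No allowance was made for gene length, which ran from 6.77 kb (HMGN1) to 836 kb (DSCAM), so these shares show no enrichment. BRWD1, a bromodomain and WD-repeat protein, had 4 regions, B3GALT5, a galactosyltransferase, had 2, IGSF5 had 1, BACE2, an aspartic protease, had 2, and FAM3B had 1. No region of these 5 genes was in all 4 lists. The antiviral genes MX1 and MX2, next to TMPRSS2, lie in a gap of 154 kb, and HMGN1, GET1, GET1-SH3BGR, LCA5L and SH3BGR in a gap of 208 kb. PCP4 lies in a gap of 145 kb.

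Taking all regions that both lists of a replicate held, reads at the summit per genome background were mostly lower with JQ1, as in the series. In replicate 1 they were lower at 7 of 8 regions, against 67.6% of all shared regions, with a median of -0.33 on the log2 scale against -0.22. In replicate 2 they were lower at 28 of 41, against 64.7%, with a median of -0.28 against -0.2. Of the 8 regions in all 4 lists, 7 were lower with JQ1 in replicate 1, against 67.7% of such regions in the series, and 7 in replicate 2, against 82.5%. In both replicates 6 were lower, against 60.9%, and 4 when set against the series median in each replicate. By the authors' fold enrichment 2 of the 8 were lower with JQ1 in both replicates, against 37.5%. With no depth scaling, 8 of the 8 were lower in both replicates. Of the 41 regions of replicate 2, 24 were lower against the series median, 36 with no depth scaling and 20 by fold enrichment. The stretch thus lay near the series in reads per genome background, and the scale used changed the count.

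**Figure D3:**
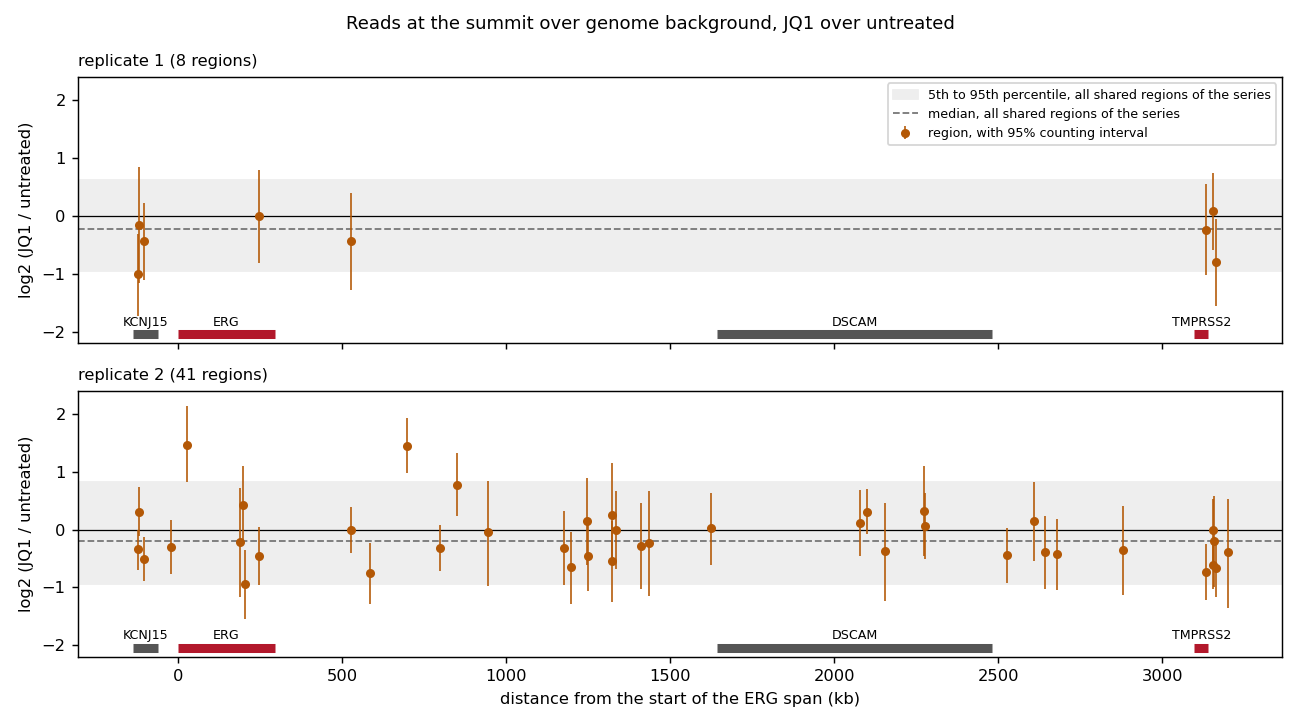
Ratio of JQ1 to untreated reads at the summit over genome background (log2, y axis) at each region that both lists of a replicate held, by distance from the start of the ERG span (kb), with 95% counting intervals; replicate 1 above, replicate 2 below. The grey band is the 5th to 95th percentile of all shared regions of the series (-0.96 to 0.62 and -0.94 to 0.82) and the dashed line their median; the 2 points far above the band in replicate 2 are the regions in ERG (1.46) and LINC02943 (1.45).

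Local background under the peaks was higher on chromosome 21 than over the series. Its median was 3.6 and 2.35 times the genome background in the stretch in JQ1 replicates 1 and 2, against 3.94 and 2.83 in untreated replicates 1 and 2. Over all peaks of the series it was 2.12 and 1.77 in the JQ1 lists, against 2.17 and 1.58 in the untreated lists. The rest of chromosome 21 had 3.6 and 2.96 with JQ1 and 3.71 and 2.42 without. Whether copy number has a part in this was not tested.

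Other genes known as fusion partners in prostate cancer, outside chromosome 21, were set beside ERG and TMPRSS2 by the regions within 50 kb of their spans. TMPRSS2 had 5 such regions with 3 in all 4 lists, and ERG had 9 with 1 in all 4. Over all protein-coding genes, 13.6% had a region in all 4 lists within this distance. Of 9 genes that like TMPRSS2 supply the starting part of a fusion, 3 did: KLK2, a kallikrein protease under androgen control, with 3 such regions, and NDRG1 and FOXP1 with 1 each. SLC45A3, another androgen-regulated prostate gene, had 5 regions in the replicate 2 lists, and ACSL3 had peaks in each of the 4 lists but no common region. HERPUD1 and HNRNPA2B1 had none, and CANT1 and DDX5 had 1 region each, called in a single list. Of 5 genes that like ERG supply the ETS part, ETV1 and ELK4 had 1 region each in all 4 lists, and ETV4, ETV5 and FLI1 had none in all 4. ELK4 and SLC45A3 are neighbours on chromosome 1, so regions near them can be shared.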

How the data were processed

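The deposited values were GATA2 peak lists of 4 VCaP precipitates. The tools named are Bowtie2, Picard and MACS2, with build hg38, per the submitters' processing notes; their versions and settings were not given in the sources here. Calling was done for each precipitate on its own, per the labels, which tie every list to 1 sample. Each deposited line holds the authors' score, which was not used, the fold enrichment at the summit, a linear ratio, and the −log10 p-value and −log10 q-value.

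Python 3.11.15, numpy 2.4.6, pandas 2.3.3 and scipy 1.17.1 were used, and the scripts were tested on simulated data. Fold enrichment was taken as (pileup + 1)/(background + 1) and the p-value as its Poisson tail, and both were solved for each peak. In untreated replicate 2 the solved pileups became whole numbers only after division by 0.6863, which was taken as a scaling before deposit; this is an inference from the values, and the read counts and intervals of that list rest on it. The lowest background in a list gave its depth. Lines off chromosomes 1 to 22, X and Y were left out (10 in JQ1 replicate 1, 8 in untreated replicate 2). Peaks sharing at least 1 bp were merged; where a list had several summits in a region, the summit with the most reads gave its values. Ratios carry exact binomial intervals.

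Members, gene lists and words were chosen with earlier results of these data known. The text names every region of ERG and TMPRSS2. Other genes of the stretch are named by regions in all 4 lists, in both lists of 1 treatment only, or among the 5 of best mean rank over the lists that held them, which mixes long and short lists; fusion partners follow a list. Other regions named were chosen after their values were seen. Sequences are RefSeq windows of GRCh38.p14; sequence under the peaks was not analysed here, so windows at gene starts were used. Alternatives were a q of 1e-05, equal-length lists, no flanks, a reciprocal overlap of 50% and summits within 100 bp. Further ones were other scalings, thinning to the lowest depth with a −log10 p of 8 or more, a replicate block and leaving out a replicate. Peaks that share an interval were also counted once. That count and the other scalings were not planned beforehand.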

Additional observations from a re-analysis of the deposited data

How the results depend on the processing

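Peak numbers and shares kept their direction under every setting tried. Log2 peak numbers ran from 0.24 to 0.43 over the settings with both replicates and from 0.21 to 0.34 without a replicate (values with no test), and the share difference from 0.0503 to 0.0729 and from 0.0131 to 0.113 percentage points. With the replicate block they were 0.27 and 0.0632 (p = 0.5 each in an exact sign-flip permutation test over 2 pairs, its smallest). Same-numbered lists share only a number; their deviations over 24 chromosomes correlated at 0.737. Density over the rest of chromosome 21 reversed to -0.1 without flanks (p = 1, exact sign-flip permutation test), and ran from 0.18 to 0.34 without a replicate.

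Regions in all 4 lists fell to 5 with equal-length lists and 3 without flanks, and ran from 8 to 41 without a replicate, as fewer lists must share them; the ERG span had 0 with equal-length lists and 1 to 5 without a replicate, and TMPRSS2 had 1 in the span alone and 3 to 5 without a replicate. Regions of both JQ1 lists alone numbered 2 with equal-length lists and 7 to 23 without a replicate, and those of both untreated lists alone 5 to 11. The other scalings, among them the authors' fold enrichment, were chosen after seeing the data. By the fold enrichment, 2 of 8 common regions were lower with JQ1 in both replicates. Reads over genome background gave 6, and reads with no depth scaling gave 8. By the fold enrichment, the TMPRSS2 ratios turned to 0.01, 0.76 and 0.12 on the log2 scale, and the local background enters by the formula. At 4 other ERG and TMPRSS2 regions, whose intervals of the ratio include 1, some scaling also changed the sign. The lowest peaks of the whole lists held 7 and 8 reads in JQ1 replicates 1 and 2, against 8 and 11 in untreated replicates 1 and 2. In the stretch the lowest held 14 and 11 reads in JQ1 replicates 1 and 2, against 15 and 17 in untreated replicates 1 and 2. Binding below the caller's limit, which rises with the local background, was not detectable.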
